A study of Mus musculus with 8 samples.

Results

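The 10 genes described here encode enzymes of glycolysis and lactate formation: Hk1, Hk2, Gpi1, Pfkl, Aldoa, Tpi1, Gapdh, Pgk1, Pkm and Ldha. They were taken by symbol from a table of 24924 readable genes, and all 10 were found and tested in every comparison. RNA came from T cells and microglia sorted by surface markers out of the brains of C57BL/6 mice aged 20 to 22 months. The mice had received interleukin-5 (IL-5), a cytokine best known for its action on eosinophils and B cells, 2 µg daily for 2 days, or PBS, a buffered saline, in its place. The 4 groups, each of 2 libraries, were T cells of IL-5 mice, T cells of PBS mice, microglia of IL-5 mice and microglia of PBS mice. All mice were old and of 1 strain. The sources used here name neither the sorting markers nor the animals behind each library, so p-values measure only the spread between these libraries, which may be technical.

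Glycolysis splits glucose into pyruvate in the cytosol and yields ATP without oxygen. Hexokinase traps glucose as its phosphate, phosphofructokinase commits the sugar to the pathway, aldolase splits it, the enzymes from triosephosphate isomerase to pyruvate kinase harvest ATP and NADH, and lactate dehydrogenase turns pyruvate into lactate to regenerate NAD. Activated T cells and activated microglia are both known to raise glycolysis, and the isozymes of each step differ between tissues.

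Gene counts came to between 23536908 and 30423828 per library. The cell labels matched their markers: the 14 T cell markers summed to 3919 to 6339 counts per 1000000 gene counts (CPM) in T cells and 20.2 to 146 CPM in microglia, and the 16 microglial markers to 116 to 211 CPM in T cells and 62467 to 95039 CPM in microglia. Other cells' RNA was present as well. The 10 markers of choroid plexus and ependyma summed to 113110 and 116523 CPM in T cells of IL-5 mice and 84236 and 59145 CPM in T cells of PBS mice, and to 60036 and 64070 CPM in microglia of IL-5 mice and 43280 and 36022 CPM in microglia of PBS mice. The 9 neutrophil markers summed to 0.602 to 26.96 CPM in T cells and 13577 to 17601 CPM in microglia, and the 6 oligodendrocyte markers to 1636 to 2620 CPM in T cells and 224 to 826 CPM in microglia. The 6 endothelial and mural markers summed to 657 to 1310 CPM in T cells and 385 to 642 CPM in microglia. The 6 macrophage and monocyte markers summed to 510.3 to 663 CPM in T cells and 344 to 409 CPM in microglia. Most of that sum in T cells was Ly6c2 and Ccr2. Mrc1 and Pf4 went the other way, lower in every T cell library than in every microglial one, and Cd163 and Lyve1 overlapped. The order of the sums therefore does not show that the T cell libraries held more macrophage RNA. Replicate 1 of the IL-5 microglia stood apart, with 25.5% of its reads outside genes against 15.2% to 19.8% in the other 7 libraries, and with the fewest genes detected, 13172.

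The members together took 0.410% and 0.470% of gene counts in T cells of IL-5 mice and 0.370% and 0.372% in T cells of PBS mice. In microglia they took 0.100% and 0.248% in IL-5 mice and 0.236% and 0.278% in PBS mice. The low share was that of the microglial library that stood apart. In bulk RNA of sorted cells, fewer cells of a type and less RNA per cell cannot be told apart.

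Levels of different genes were set side by side per kb of exon, with the exons of all annotated transcripts of a gene merged. On that scale Aldoa was the highest member in every library. It made up 37.2% to 39.8% of the members' summed level per kb in T cells and 33.4% to 39.8% in microglia. On this scale the next places differed between the cell types. Merged exons span 4133 bases in Gapdh, 3310 in Ldha and 2753 in Tpi1. Their longest coding transcripts span 1420, 1815 and 1607 bases. The places after Aldoa, and the levels and shares per kb below, rest on the merged lengths, and transcript lengths were not tried. Ldha was second in all 4 T cell libraries, with 16.1% to 21.2%, and Tpi1 was second in all 4 microglial libraries, with 19.0% to 22.2%. At the bottom stood a different hexokinase in each cell type: Hk2 was last in every T cell library with 0.0295% to 0.0942% of the sum, and Hk1 was last in every microglial library with 0.0476% to 0.238%.

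The hexokinases were the clearest difference between the cell types. Hk1 (chr10:62268855-62379908, minus strand, GRCm38) encodes the constitutive hexokinase of brain and blood cells, and Hk2 (chr6:82725025-82774454, minus strand) encodes the form that is induced by insulin, hypoxia and growth signals in muscle and many activated cells. Because these 2 genes carried the finding, the 120 bases before their RefSeq start sites (GRCm38.p6, gene strand, 5′ to 3′) are shown, with ACGTG and GCGTG on either strand in capitals. These letters are the core of the element bound by HIF-1, the hypoxia-induced factor that is known to drive many glycolytic genes.
Hk1 upstream start, chr10:62379909-62380028: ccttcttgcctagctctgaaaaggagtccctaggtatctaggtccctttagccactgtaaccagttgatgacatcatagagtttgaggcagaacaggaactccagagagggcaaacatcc
Hk1 inner start, chr10:62340422-62340541: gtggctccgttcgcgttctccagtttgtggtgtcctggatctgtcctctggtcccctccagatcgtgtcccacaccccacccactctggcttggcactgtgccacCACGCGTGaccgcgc
Hk2, chr6:82774455-82774574: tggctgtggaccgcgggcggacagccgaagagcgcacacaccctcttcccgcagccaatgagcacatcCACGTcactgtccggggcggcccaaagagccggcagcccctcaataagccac
The upstream Hk1 window held neither core, the inner one held overlapping GCGTG cores on both strands, and the Hk2 window held 1 ACGTG on the minus strand of the gene.

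Hk1 measured 97.3 and 125 CPM in T cells of IL-5 mice and 186 and 172 CPM in T cells of PBS mice. In microglia it measured 4.50 and 13.6 CPM in IL-5 mice and 13.9 and 3.28 CPM in PBS mice. Every T cell library was above every microglial one, and the microglial values were scattered at this low level. T cells were higher by a log2 fold change of 2.85 (SE 0.73, edgeR adjusted p = 0.0441) in IL-5 mice and 3.68 (SE 0.76, edgeR adjusted p = 0.0207) in PBS mice.

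Hk2 measured 2.78 and 7.34 CPM in T cells of IL-5 mice and 4.51 and 1.79 CPM in T cells of PBS mice. In microglia it measured 126 and 53.02 CPM in IL-5 mice and 65.8 and 78.4 CPM in PBS mice. The order of the cell types was thus the opposite of that of Hk1, again without overlap. The log2 fold change of T cells over microglia was -5.08 (SE 0.83, edgeR adjusted p = 0.00809) in IL-5 mice and -5.21 (SE 0.84, edgeR adjusted p = 0.0067) in PBS mice.

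Within a library, the ratio of the 2 genes does not depend on scaling between libraries. Per kb, Hk1 exceeded Hk2 by 24.5-fold and 11.9-fold in T cells of IL-5 mice and by 28.8-fold and 67.4-fold in T cells of PBS mice. In microglia Hk2 exceeded Hk1 by 40.0-fold and 5.56-fold in IL-5 mice and by 6.77-fold and 34.2-fold in PBS mice. Hk1, Hk2 and Hk3 summed to 12.8 and 16.9 CPM per kb in T cells of IL-5 mice and 22.5 and 20.5 CPM per kb in T cells of PBS mice, against 27.2 and 18.1 CPM per kb in microglia of IL-5 mice and 21.6 and 19.4 CPM per kb in microglia of PBS mice. In unscaled CPM the summed level therefore overlapped between cell types while its make-up did not. TMM scaling allows for the make-up of each library and divides levels by 1.27 to 1.32 in T cells and 0.639 to 0.820 in microglia. On that scale, and with merged exon lengths, every microglial sum lay above every T cell sum. Those lengths weigh on the sums: Hk1 spans 8532 merged bases against 4278 in its longest coding transcript, and Hk2 5969 against 5513. Sums with transcript lengths were not made, so neither the overlap nor the separation is settled. Hk1 overlaps an antisense gene, Hk1os, over 157 bases of its exons. Counts of Hk1os were 0 to 174 per library and reached 195.5% of those of Hk1 in replicate 2 of the PBS microglia. Hk1 itself had 89 to 423 counts per library in microglia and 2905 to 4905 in T cells. The strand setting of the counting is not given in the sources used here, so the Hk1 values are uncertain to that extent, most so in microglia. Neutrophil markers also differed between the cell types in the direction of Hk2, and their part in the result was not tested.

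**Figure D1:**
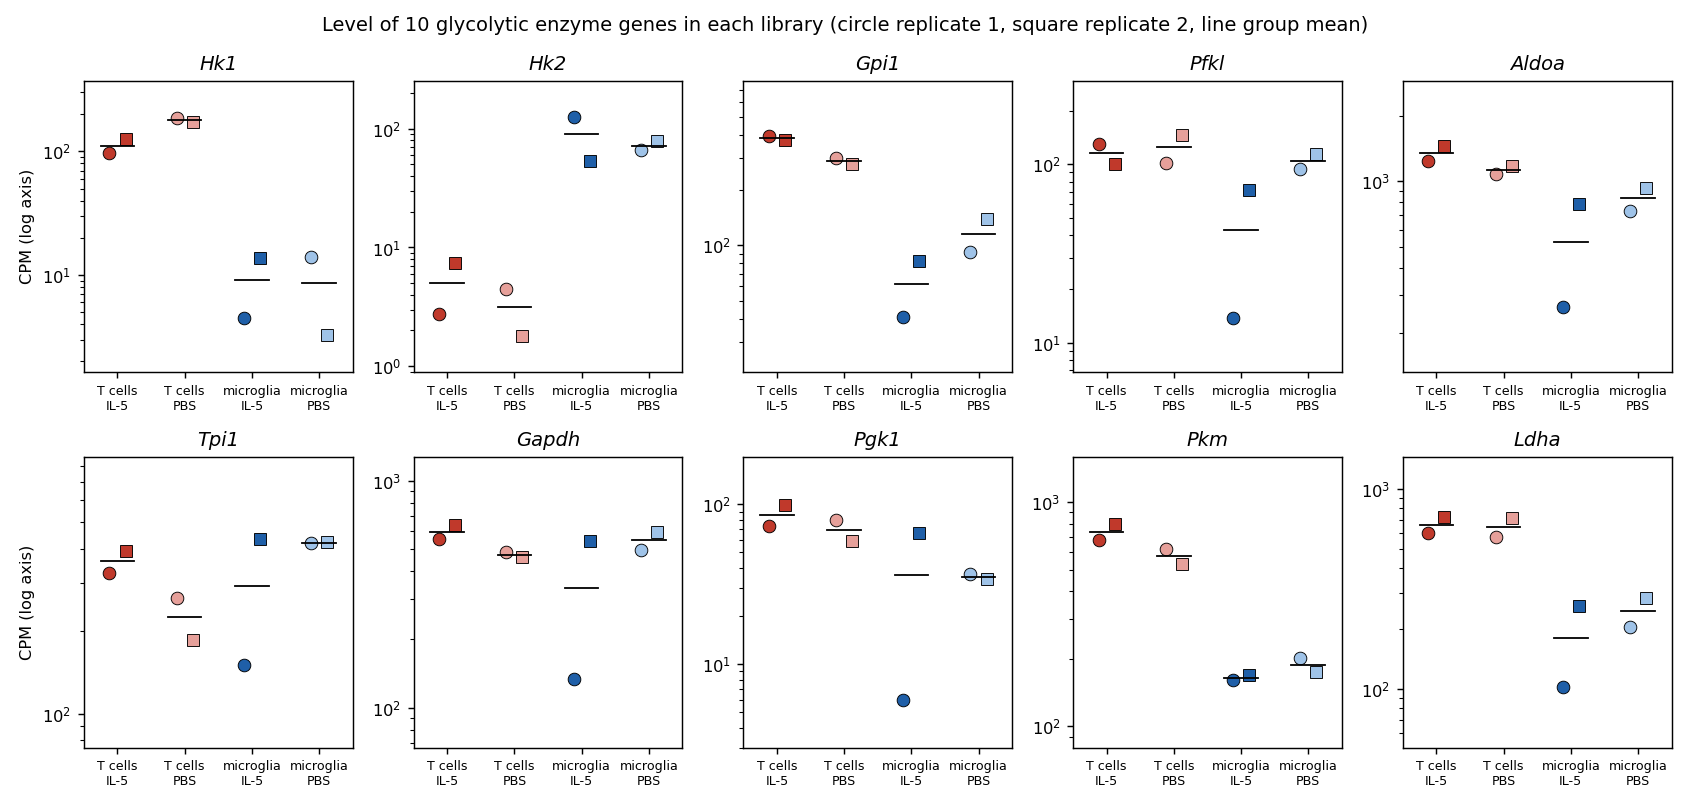
Level of each of the 10 genes in each library in CPM on a log axis, with circles for replicate 1, squares for replicate 2 and a line at the group mean, for T cells (IL-5, PBS) and microglia (IL-5, PBS). Hk1 lies at 97.3 to 186 CPM in T cells and 3.28 to 13.9 CPM in microglia, Hk2 lies the other way round, and replicate 1 of the IL-5 microglia is the lowest microglial library for 8 of the 10 genes.

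Gpi1 (chr7:34201330-34230336, minus strand) encodes glucose-6-phosphate isomerase, which turns the hexokinase product into fructose-6-phosphate. It measured 391 and 374 CPM in T cells of IL-5 mice and 299 and 278 CPM in T cells of PBS mice. In microglia it measured 41.0 and 82.3 CPM in IL-5 mice and 91.8 and 139 CPM in PBS mice. T cells were above microglia in both treatments, by a log2 fold change of 1.84 (SE 0.37, edgeR adjusted p = 0.0196) in IL-5 mice and 0.63 (SE 0.36, edgeR adjusted p = 0.341) in PBS mice, of which the first passed the threshold of 0.05.

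Pfkl (chr10:77986947-78010083, minus strand) encodes the liver-type subunit of phosphofructokinase. It measured 131 and 100.5 CPM in T cells of IL-5 mice and 102 and 147 CPM in T cells of PBS mice, and 13.7 and 71.7 CPM in microglia of IL-5 mice and 94.6 and 115 CPM in microglia of PBS mice. In PBS mice the cell types overlapped, and neither comparison of the cell types passed the test. Aldoa (chr7:126795234-126800751, minus strand), the aldolase of muscle and most other cells, measured 1245 and 1447 CPM in T cells of IL-5 mice and 1086 and 1175 CPM in T cells of PBS mice. In microglia Aldoa measured 266 and 786 CPM in IL-5 mice and 734 and 935 CPM in PBS mice. All T cell libraries were above all microglial ones on this scale, but after TMM scaling, which allows for the make-up of each library, the log2 fold changes were 0.59 (SE 0.41) in IL-5 mice and -0.26 (SE 0.41) in PBS mice and did not pass.

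Tpi1 (chr6:124810586-124814296, minus strand) encodes triosephosphate isomerase. It measured 327 and 394 CPM in T cells of IL-5 mice and 264 and 186 CPM in T cells of PBS mice, and 150.2 and 433 CPM in microglia of IL-5 mice and 419 and 423 CPM in microglia of PBS mice. In PBS mice both T cell libraries were below both microglial ones. That difference, a log2 fold change of -1.60 (SE 0.42), narrowly missed the threshold (edgeR adjusted p = 0.0524). It passed with DESeq2 (log2 fold change -1.65, adjusted p = 0.00181), which called 2825 genes in this comparison against 1105 with edgeR.

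Gapdh (chr6:125161715-125166467, minus strand), the dehydrogenase that makes NADH and a common reference gene, measured 556 and 639 CPM in T cells of IL-5 mice and 483 and 461 CPM in T cells of PBS mice. In microglia it measured 133 and 542 CPM in IL-5 mice and 497 and 594 CPM in PBS mice. It varied 4.08-fold between the 2 IL-5 microglial libraries alone, and T cells and microglia did not differ past the threshold in either treatment. Near-identical copies of Gapdh sequence lie in 41 other annotated genes, 2 of them in the table with at most 0.135% of its counts, so that how reads were shared among copies leaves its level uncertain. Pgk1 (chrX:106187100-106203699, plus strand), the kinase of the first ATP-yielding step, measured 73.0 and 99.3 CPM in T cells of IL-5 mice and 79.9 and 59.1 CPM in T cells of PBS mice. In microglia Pgk1 measured 5.99 and 66.5 CPM in IL-5 mice and 36.4 and 34.2 CPM in PBS mice, so that the lowest and the highest microglial value were both in the IL-5 group.

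Pkm (chr9:59656368-59679375, plus strand) encodes the pyruvate kinase of most tissues other than liver, in M1 and M2 splice forms that gene counts do not separate. It measured 679 and 795 CPM in T cells of IL-5 mice and 614 and 530 CPM in T cells of PBS mice, and 161 and 169 CPM in microglia of IL-5 mice and 202 and 175 CPM in microglia of PBS mice. Pkm was the steadiest member among the microglia, and the T cells were above them in every library. The log2 fold change of T cells over microglia was 1.31 (SE 0.31, edgeR adjusted p = 0.0327) in IL-5 mice and 0.90 (SE 0.31, edgeR adjusted p = 0.117) in PBS mice. The liver form, Pklr, took at most 0.575% of the pyruvate kinase level per kb in any library.

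Ldha (chr7:46841475-46855627, plus strand) encodes the muscle subunit of lactate dehydrogenase. It measured 599 and 721 CPM in T cells of IL-5 mice and 576 and 712 CPM in T cells of PBS mice, and 102 and 258 CPM in microglia of IL-5 mice and 204 and 285 CPM in microglia of PBS mice. T cells were above microglia without overlap in CPM, but with TMM scaling the log2 fold changes of 1.102 (SE 0.39, edgeR adjusted p = 0.132) in IL-5 mice and 0.70 (SE 0.39, edgeR adjusted p = 0.324) in PBS mice did not pass. Its first RefSeq promoter held the most HIF-1 cores among the members' promoters and is shown for that reason, with the 120 bases before the start and the same capitals.
Ldha, chr7:46845684-46845803: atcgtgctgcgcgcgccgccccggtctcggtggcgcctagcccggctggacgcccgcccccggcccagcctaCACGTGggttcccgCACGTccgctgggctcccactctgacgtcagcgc
This window held CACGTG, which reads as ACGTG on both strands, and a further ACGTG on the minus strand.

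Across the 250 bases before each start, ACGTG or GCGTG was present on either strand in 10 of the 15 RefSeq promoters of the members, which belong to 8 of the 10 genes. It was present in 38.6% of all 32851 promoters of the same length. ACGTG alone was present in 6 of the members' promoters and 16.6% of all, GCGTG in 4 and 28.2%, CACGTG, which contains ACGTG, in 1 and 6.02%, GGGCGG in 8 and 32.7%, and TATAAA in 0 and 12.4%. Gpi1 and Tpi1 were the 2 genes without an ACGTG or GCGTG in these windows. Several promoters of 1 gene overlap, and a match describes letters, not binding.

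Across the pathway, the difference between T cells and microglia passed the test at a few steps. In IL-5 mice Hk1, Gpi1 and Pkm passed as higher in T cells and Hk2 as lower, which is 3 and 1 of 10 members beside 2.49% and 5.73% of the 15397 genes tested. In PBS mice Hk1 passed as higher and Hk2 as lower, 1 and 1 of 10 beside 2.57% and 4.6% of genes. The median log2 fold change of the members was 0.65 in IL-5 mice, where that of all genes was 0.19, and 0.01 in PBS mice, where that of all genes was 0.06.

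Scaling by library size in place of TMM moved all of these fold changes, while Hk1 and Hk2 kept their direction and their calls. TMM factors were 1.27 to 1.32 in T cells and 0.639 to 0.820 in microglia, so scaling by library size alone shifted the median of all genes to 1.01 in IL-5 mice and 0.75 in PBS mice. Under that scaling the calls in IL-5 mice were Hk1, Hk2, Gpi1, Pkm and Ldha, and in PBS mice Hk1, Hk2 and Pkm, and the fold changes of Tpi1 in IL-5 mice (0.30) and of Pfkl (0.25) and Aldoa (0.44) in PBS mice became positive. Among all genes that scaling likewise turned most calls to higher in T cells, with the counts given in the last section. The neutrophil, oligodendrocyte and endothelial marker sums also stood apart between the cell types, as did the macrophage sum, through Ly6c2 and Ccr2. So did the NK and ILC marker sums (94.0 to 125 CPM in T cells and 7.22 to 35.5 CPM in microglia). Most of that T cell sum was Gata3 (71.1 to 80.5 CPM in T cells and 0.212 to 6.83 CPM in microglia), while Ncr1, Klrb1c and Il1rl1 overlapped. The choroid plexus sums were higher in T cells within each treatment but overlapped across treatments. The part of all these sums in these results was not tested. Hk2 passed in PBS mice with each single library left out and in IL-5 mice likewise, but in IL-5 mice it did not pass when only the 4 libraries of those mice were fitted (log2 fold change -5.08, edgeR adjusted p = 0.0662). Hk1 did not pass in PBS mice without T cell PBS replicate 1 (log2 fold change 3.63, edgeR adjusted p = 0.0547) or without microglial PBS replicate 2 (2.88, adjusted p = 0.0768). In IL-5 mice the Hk1, Gpi1 and Pkm calls were all lost without T cell IL-5 replicate 1 (edgeR adjusted p = 0.109, 0.103 and 0.141) or replicate 2 (0.116, 0.0627 and 0.144). Those of Hk1 and Pkm were lost without T cell PBS replicate 1 (0.0540 and 0.0592) or replicate 2 (0.0513 and 0.0590), that of Hk1 without microglial IL-5 replicate 1 (0.174), and that of Pkm without microglial PBS replicate 1 (0.0984) or replicate 2 (0.0974). Without microglial IL-5 replicate 2, 9 members passed in IL-5 mice, 8 as higher and Hk2 as lower, beside 6.2% and 7.13% of all genes in that fit. With either replicate 1 or replicate 2 of the IL-5 microglia left out, 5 members passed in PBS mice, with Pkm added as higher and Tpi1 and Gapdh as lower, beside 4.84% or 5.01% of all genes as higher and 6.9% or 7.22% as lower. Offsets for exonic length left Hk2 as the single call in IL-5 mice, beside 1.54% of genes as higher and 4.81% as lower (Hk1, Gpi1 and Pkm at edgeR adjusted p = 0.0997, 0.0866 and 0.291).

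**Figure D2:**
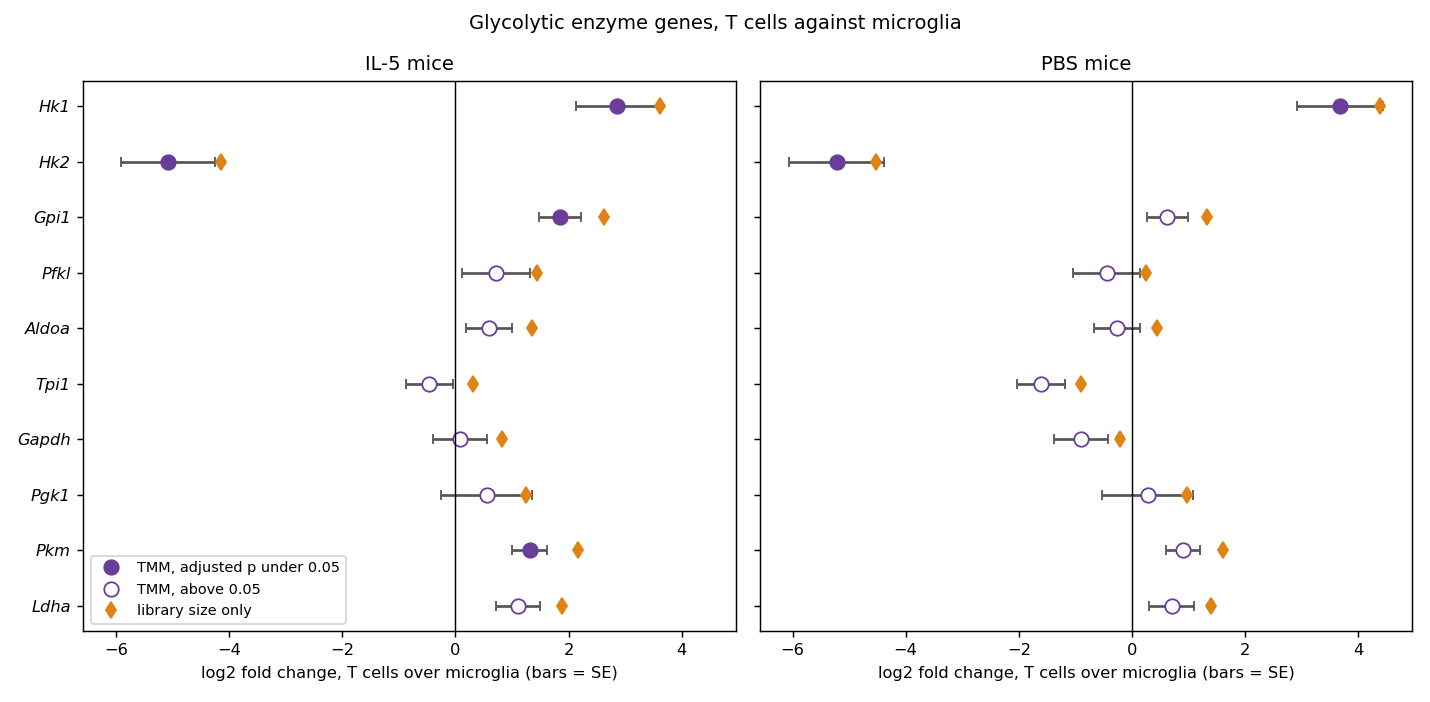
Log2 fold change of T cells over microglia for each gene in IL-5 mice (left) and PBS mice (right), with circles for TMM scaling (filled where the edgeR adjusted p is under 0.05), bars for the SE and diamonds for scaling by library size only. Hk1 lies at 2.85 and 3.68 and Hk2 at -5.08 and -5.21, and for the other genes the diamonds lie to the right of the circles.

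The other isozymes of these steps differed between the cell types as well. Per kb, Hk1 made up 87.1% to 98.5% of the summed level of Hk1, Hk2 and Hk3 in T cells and 1.94% to 8.81% in microglia, where Hk2 made up 49.0% to 77.8% and Hk3 20.3% to 42.2%. Hk3, a hexokinase of myeloid cells, measured 3.42 and 3.501 CPM in T cells of IL-5 mice and 0 CPM in both T cell libraries of PBS mice, where a count of 0 allows 0.114 and 0.117 CPM, against 20.3 and 28.2 CPM in microglia of IL-5 mice and 33.0 and 21.5 CPM in microglia of PBS mice. In PBS mice Hk3 was at least 237-fold lower in T cells than in microglia, with the T cells set at 3 counts per library (edgeR adjusted p = 0.00235). In IL-5 mice the log2 fold change of Hk3 was -3.63 (SE 0.95, edgeR adjusted p = 0.0550) and missed the threshold. Neutrophil markers were higher in the microglial libraries too, and their part in the Hk3 values was not tested.

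Phosphofructokinase was also mixed differently. Pfkp, the platelet-type subunit, measured 281 and 285 CPM in T cells of IL-5 mice and 340.3 and 262 CPM in T cells of PBS mice, against 7.35 and 29.3 CPM in microglia of IL-5 mice and 23.4 and 34.9 CPM in microglia of PBS mice. It was higher in T cells by a log2 fold change of 3.20 (SE 0.56, edgeR adjusted p = 0.0104) in IL-5 mice and 2.67 (SE 0.54, edgeR adjusted p = 0.0202) in PBS mice. Pfkl made up 43.7% and 29.9% of the family level per kb in T cells of IL-5 mice and 23.2% and 41.1% in T cells of PBS mice. In microglia it made up 39.0% and 71.4% in IL-5 mice and 82.4% and 85.4% in PBS mice, and Pfkm, the muscle subunit, made up 50.6% in the library that stood apart and 1.70% to 14.04% in the other 3. Part of Pfkp has a near-identical copy in Pitrm1, whose counts reached 34.9% of those of Pfkp in 1 library, which leaves its level uncertain.

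Lactate dehydrogenase was mixed in both cell types. Ldha made up 39.8% and 32.4% of the family level per kb in T cells of IL-5 mice and 38.7% and 52.9% in T cells of PBS mice, against 26.0% and 26.8% in microglia of IL-5 mice and 24.5% and 31.8% in microglia of PBS mice, nearly all the rest being Ldhb, the heart subunit. Every T cell share was above every microglial share, by a small margin at the nearest pair. Ldhb itself did not pass in either treatment (log2 fold changes 0.50, SE 0.41, in IL-5 mice and -0.38, SE 0.41, in PBS mice). Aldoa made up 90.4% to 98.7% of the aldolase level in all libraries, with Aldoc the next gene. Enolase 1 was listed at only 0.170 to 2.80 CPM, and near-identical sequence in Eno1b makes that level uncertain.

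Sugar and lactate carriers at the ends of the pathway differed by isoform as well. Slc2a1 (GLUT1) made up 84.2% to 91.2% of the glucose transporter level per kb in T cells and 18.2% to 28.8% in microglia, where Slc2a5, a fructose carrier known as a microglial marker in brain, made up 59.6% to 70.6%. Slc2a5 measured 0 CPM in both T cell libraries of IL-5 mice and 0 and 1.63 CPM in T cells of PBS mice, against 359 and 994 CPM in microglia of IL-5 mice and 1076 and 1253 CPM in microglia of PBS mice. It was lower in T cells in IL-5 mice (at least 6342-fold with T cells set at 3 counts per library, edgeR adjusted p = 0.00798) and in PBS mice (edgeR adjusted p = 0.0122). Slc16a3 (MCT4), a lactate exporter, measured 5.79 and 3.27 CPM in T cells of IL-5 mice and 8.25 and 7.23 CPM in T cells of PBS mice, against 51.6 and 99.3 CPM in microglia of IL-5 mice and 65.6 and 104 CPM in microglia of PBS mice. It was lower in T cells by log2 fold changes of -4.84 (SE 0.61, edgeR adjusted p = 0.00261) in IL-5 mice and -4.15 (SE 0.59, edgeR adjusted p = 0.00379) in PBS mice, while Slc2a1 and Slc16a1 (MCT1) did not pass in either treatment. Slc2a1 is also known as a main glucose transporter of brain endothelium, and endothelial markers were higher in every T cell library than in every microglial one for Pecam1 (96.1 to 163 CPM in T cells and 6.90 to 13.1 CPM in microglia), Flt1 (154 to 396 CPM in T cells and 16.4 to 54.4 CPM in microglia) and Kdr (97.3 to 175 CPM in T cells and 7.72 to 31.7 CPM in microglia), while Cldn5 overlapped. The part of endothelial RNA in the Slc2a1 shares was not tested.

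**Figure D3:**
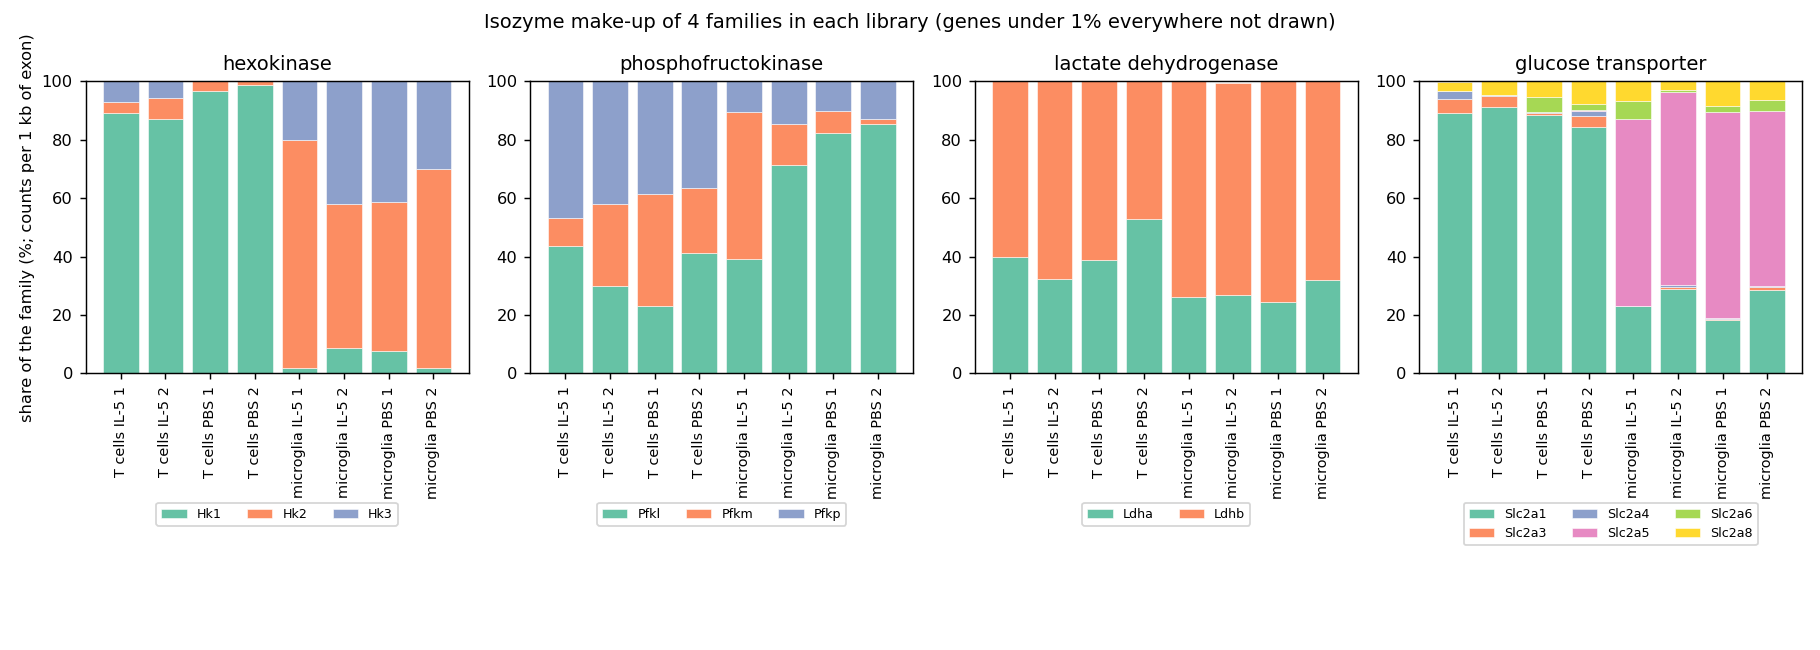
Share of each gene in the level per kb of its family in each library, as stacked bars in percent, for hexokinases (Hk1, Hk2 and Hk3), phosphofructokinases, lactate dehydrogenases and glucose transporters. Hk1 fills 87.1% to 98.5% of the hexokinase bar in T cells and 1.94% to 8.81% in microglia. Slc2a1 takes the largest share of the glucose transporter bar in T cells and Slc2a5 in microglia, where the level of Slc2a1 itself did not differ past the threshold.

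The lists of neighbouring genes showed mixed directions between the cell types. Of 20 other glycolysis genes 15 were tested, with 1 higher (Pfkp) and 0 lower in T cells of IL-5 mice and 1 higher (Pfkp) and 1 lower (Hk3) in PBS mice. Of the 15 transport genes 14 were tested, with 0 higher and 3 lower in each treatment. They were Slc2a5, Slc2a6 and Slc16a3 in IL-5 mice and Slc2a5, Slc2a8 and Slc16a3 in PBS mice. All 21 regulators were tested, with 0 higher and 3 lower in each treatment, namely Mlxipl, a carbohydrate-sensing transcription factor, Vhl, which marks HIF proteins for destruction, and Pfkfb3, which makes the activator of phosphofructokinase. Pfkfb3 measured 30.9 and 17.2 CPM in T cells of IL-5 mice and 19.0 and 32.9 CPM in T cells of PBS mice, against 41.98 and 95.03 CPM in microglia of IL-5 mice and 75.8 and 79.5 CPM in microglia of PBS mice, with log2 fold changes of -2.28 (SE 0.56) in both treatments. Hif1a did not pass (log2 fold changes 0.52, SE 0.42, in IL-5 mice and 1.17, SE 0.42, in PBS mice).

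Of 22 genes of the TCA cycle, which burns the pyruvate that glycolysis supplies, 4 passed as higher and 1 as lower in T cells of IL-5 mice and 2 as higher and 2 as lower in PBS mice. The list had the highest median of the 9 lists in IL-5 mice, 1.18 on the log2 scale beside 0.19 for all genes, and a median of 0.56 beside 0.06 in PBS mice. Ogdh, a subunit of the 2-oxoglutarate dehydrogenase complex, passed in both, at log2 fold changes of 2.22 (SE 0.42, edgeR adjusted p = 0.0153) in IL-5 mice and 2.25 (SE 0.42, edgeR adjusted p = 0.0147) in PBS mice. In IL-5 mice Fh1 (fumarase, 2.21, SE 0.51), Idh3a (isocitrate dehydrogenase, 2.01, SE 0.48) and Dlst also passed as higher and Sdhc as lower. In PBS mice Mdh1 (malate dehydrogenase, 1.52, SE 0.39) passed as higher and Sdhc and Sdhd, subunits of succinate dehydrogenase, as lower.

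Genes at the entry of pyruvate into mitochondria, 14 in all, had 0 higher and 1 lower in each treatment, Mpc2 in IL-5 mice and Mpc1 in PBS mice, the 2 subunits of the pyruvate carrier. The 11 pentose phosphate genes had 1 higher (Tkt, transketolase) and 1 lower (Pgls) in IL-5 mice, and 0 higher and 1 lower (Pgd) in PBS mice. Of 16 genes of gluconeogenesis and glycogen 11 were tested, with 0 higher and 1 lower (G6pc3) in IL-5 mice and 1 higher (Pygb) and 1 lower (G6pc3) in PBS mice. The 15 other genes known as HIF-1 targets had 0 higher and 1 lower (Higd1a) in IL-5 mice and 1 higher (Kdm3a) and 0 lower in PBS mice.

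After IL-5, most members were a little higher in T cells, but none passed the test. Tpi1 measured 327 and 394 CPM in T cells of IL-5 mice and 264 and 186 CPM in T cells of PBS mice, without overlap, and was the single member at an unadjusted p under 0.05 (log2 fold change 0.73, SE 0.26, edgeR adjusted p = 1.0). Gpi1, Aldoa, Gapdh and Pkm also had both IL-5 libraries above both PBS libraries, at log2 fold changes of 0.45 (SE 0.19), 0.30 (SE 0.15), 0.39 (SE 0.17) and 0.41 (SE 0.18). Hk1 went the other way without overlap, at -0.64 (SE 0.27). After TMM scaling, that is 5 of 10 members above and 1 of 10 below without overlap, beside 17.1% and 18.5% of the 13897 genes tested. Hk2 (0.72, SE 2.13), Pfkl (-0.06, SE 0.33), Pgk1 (0.36, SE 0.38) and Ldha (0.08, SE 0.19) overlapped between treatments.

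The edgeR test called 0 members higher and 0 lower, beside 0% and 0% of all genes, with 1 member and 355 higher and 245 lower genes at an unadjusted p under 0.05. DESeq2 called 0 members, while it called 403 genes as higher and 255 as lower. The median log2 fold change of the members was 0.37 and that of all genes -0.01, and the members' median ranged from 0.16 to 0.48 when each library was left out. The choroid plexus markers summed to 113110 and 116523 CPM in T cells of IL-5 mice, against 84236 and 59145 CPM in T cells of PBS mice, and the T cell markers summed to 3919 and 4763 CPM in IL-5 mice and 5329 and 6339 CPM in PBS mice. The macrophage and monocyte markers (578 and 510.3 CPM in IL-5 mice, 654 and 663 CPM in PBS mice), the 6 neuronal markers (9.28 and 18.4 CPM in IL-5 mice, 40.5 and 30.9 CPM in PBS mice), the 7 erythroid markers (1.74 and 54.1 CPM in IL-5 mice, 99.4 and 118 CPM in PBS mice) and the 4 NK and ILC markers (99.9 and 94.0 CPM in IL-5 mice, 125 and 104 CPM in PBS mice) were also lower without overlap. So were the 2 CD8 markers (1248 and 1398 CPM in IL-5 mice, 1946 and 2130 CPM in PBS mice), while Cd4 overlapped. Most of the macrophage sum in these T cell libraries was Ly6c2 and Ccr2. Most of the NK and ILC sum was Gata3, which by itself was not lower in IL-5 mice (80.5 and 77.8 CPM, against 76.7 and 71.1 CPM in PBS mice). The part of these shifts in the members' values was not tested, and with libraries scaled to the T cell markers the members' median was 0.55.

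In microglia the IL-5 libraries were lower for most members, again with none passing the test, and 1 library set the size of the difference. Pfkl measured 13.7 and 71.7 CPM in microglia of IL-5 mice and 94.6 and 115 CPM in microglia of PBS mice, a log2 fold change of -1.26 (SE 0.68, edgeR adjusted p = 0.964). Gpi1 measured 41.0 and 82.3 CPM in microglia of IL-5 mice and 91.8 and 139 CPM in microglia of PBS mice, a log2 fold change of -0.80 (SE 0.45, edgeR adjusted p = 0.968). After TMM scaling these 2 were the only members whose groups did not overlap, so 0 of 10 lay above and 2 of 10 below, beside 17.8% and 20.6% of the 13764 genes tested. Aldoa (-0.59, SE 0.51), Tpi1 (-0.45, SE 0.49), Gapdh (-0.64, SE 0.59), Ldha (-0.36, SE 0.47) and Pkm (-0.03, SE 0.38) were below 0 with overlap on that scale, and Hk2 (0.55, SE 0.58), Hk1 (0.14, SE 1.16) and Pgk1 (0.04, SE 0.93) above it. In unscaled CPM the Pkm groups did not overlap either, with 161 and 169 CPM in microglia of IL-5 mice and 202 and 175 CPM in microglia of PBS mice.

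The edgeR test called 0 members in either direction, beside 0% and 0% of all genes, with 0 members and 246 higher and 371 lower genes at an unadjusted p under 0.05. DESeq2 called 0 members, and 18 higher and 49 lower genes. The members' median was -0.41 and that of all genes -0.02. Replicate 1 of the IL-5 microglia held the lowest TMM-scaled microglial value for 7 of the 10 members, against 35.1% of all genes tested, and the median member lay 1.05 below the mean of the other 3 libraries on the log2 scale, against 0.0638 for all genes. On that scale Hk2 and Pkm were instead highest there.

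Without replicate 1 of the IL-5 microglia the members' median log2 fold change was -0.07, that of all genes was -0.09, and Hk2 (-0.46), Tpi1 (0.02) and Ldha (0.06) changed sign. Without replicate 2, which leaves the library that stood apart as the lone IL-5 sample and assumes that it varies like the others, the members' median was -1.15 and that of all genes -0.31, and Pfkl (-2.60, edgeR adjusted p = 0.0153), Aldoa (-1.31, edgeR adjusted p = 0.0231), Tpi1 (-1.15, edgeR adjusted p = 0.0288) and Gapdh (-1.70, edgeR adjusted p = 0.0125) passed as lower, which is 4 of 10 beside 4.85% of all genes as lower and 3.57% as higher in that fit. The choroid plexus markers summed to 60036 and 64070 CPM in microglia of IL-5 mice and 43280 and 36022 CPM in microglia of PBS mice. The oligodendrocyte markers summed to 224 and 486 CPM in microglia of IL-5 mice and 680.0 and 826 CPM in microglia of PBS mice, without overlap, lower in IL-5 mice as most members were and lowest in replicate 1. The 7 B cell markers (261 and 304 CPM in IL-5 mice, 123 and 176 CPM in PBS mice) and the 6 astrocyte markers (102 and 94.6 CPM in IL-5 mice, 165 and 103 CPM in PBS mice) did not overlap either. The part of these shifts in the members' values was not tested.

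**Figure D4:**
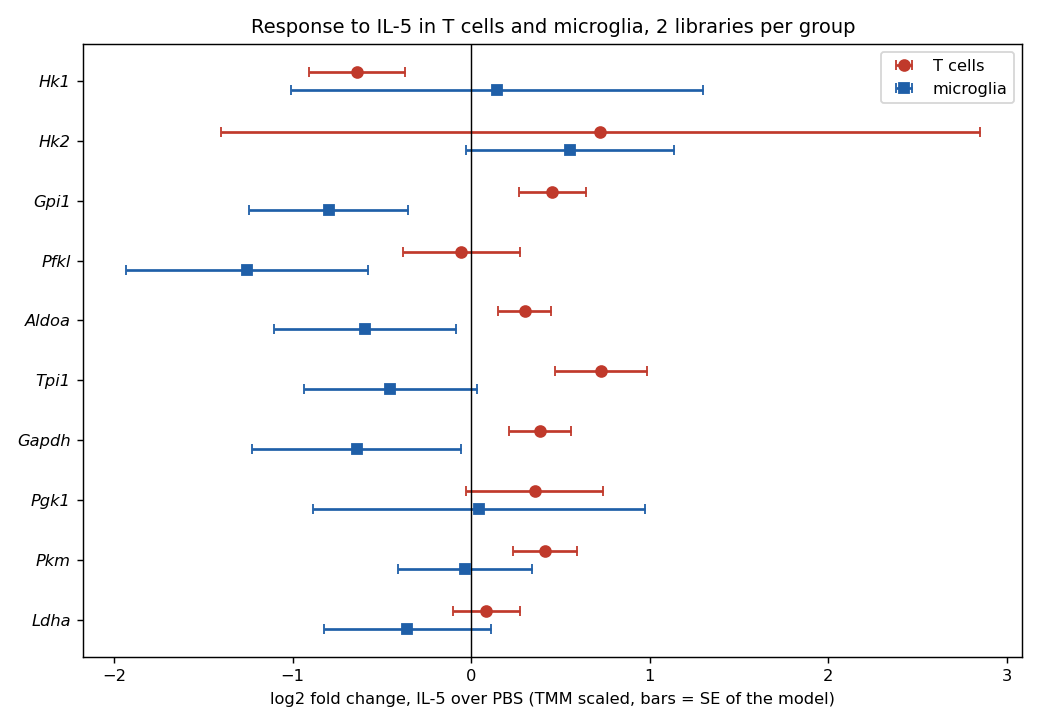
Log2 fold change of IL-5 over PBS for each gene in T cells (circles) and microglia (squares), with bars for the SE of the model and 2 libraries per group. In T cells 8 of 10 genes lie above 0 and in microglia 7 of 10 lie below 0, with bars that are wider in microglia for all genes except Hk2.

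The difference between the 2 responses was tested directly in 1 fit of all 8 libraries. Of the 10 members 9 had a more positive response in T cells than in microglia, with a median difference of 0.63 on the log2 scale beside 0.03 for all genes. None passed: edgeR called 0 members and 0% and 0% of 15397 genes in either direction, with 1 member and 496 higher and 302 lower genes at an unadjusted p under 0.05, and DESeq2 called 0 members, and 130 higher and 51 lower genes. Gpi1 had the lowest p (difference 1.22, SE 0.51, unadjusted p = 0.0416, edgeR adjusted p = 0.904), followed by Tpi1 (1.14, SE 0.58, edgeR adjusted p = 0.904). Gapdh, at 0.99 (SE 0.67), passed as the single member when replicate 2 of the IL-5 microglia was left out (2.02, edgeR adjusted p = 0.0299), beside 1.07% of all genes as higher and 0.326% as lower in that fit.

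In the 8 lists around the members edgeR called 0 genes after IL-5 in either cell type, as it did among all genes. At an unadjusted p under 0.05 there were 1 to 3 genes in 4 lists in T cells and 1 or 2 in 6 lists in microglia. The lists differed in direction. In T cells 17 of 22 TCA cycle genes and 12 of 14 genes of pyruvate entry were above 0, with medians of 0.38 and 0.36, and in microglia 17 of 22 and 9 of 14 were below 0, with medians of -0.28 and -0.57. Medians of other glycolysis genes (0.10 in T cells, -0.34 in microglia), transport (0.55, -0.43) and pentose phosphate genes (0.15, -0.67) had the same signs. Those of regulators (-0.105, 0.13), gluconeogenesis and glycogen (0.43, 0.41) and other HIF-1 targets (0.09, 0.02) did not. The genes with the lowest p in T cells were Ugp2 (1.1004, SE 0.35) and Sdhd (0.80, SE 0.27) among those above 0. Slc2a6, a glucose transporter of the lysosome, measured 0 CPM in both T cell libraries of IL-5 mice, where a count of 0 allows 0.100 and 0.113 CPM, and 28.1 and 10.6 CPM in T cells of PBS mice, which is at least 181-fold lower with IL-5 set at 3 counts per library (edgeR adjusted p = 1.0). Hk3 measured 3.42 and 3.501 CPM in T cells of IL-5 mice and 0 CPM in T cells of PBS mice, at least 30.1-fold higher, and did not pass either (edgeR adjusted p = 1.0). In microglia the genes with the lowest p were Pygb (2.41, SE 0.70) and Higd1a (1.27, SE 0.48) above 0, and Slc2a8 (-1.51, SE 0.39) and Dlst (-1.85, SE 0.60) below 0.

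Members were not alike in their course over the 8 libraries. Aldoa lay closest to the members' mean course, with a root mean square difference of 0.15 on the log2 CPM scale, followed by Gapdh at 0.32 and Ldha at 0.43, while Hk1 lay at 1.80 and Hk2 at 2.78. Among 7482 other genes with a mean of at least 20 CPM, those nearest to the mean course were Rpl29, a ribosomal protein gene (0.12), Pgrmc1 (0.12), Ran, a nuclear transport GTPase (0.13), Mapre1 (0.13) and Atp1b3, a subunit of the sodium pump (0.17). The mean course was lowest in replicate 1 of the IL-5 microglia, 0.83 below its own average on the log2 scale.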

How the data were processed

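The authors deposited whole-number read counts per gene for 8 libraries, unscaled. Per the submitters' processing notes, the tools were STAR 2.5.3a, Cufflinks 2.0, DESeq2 1.1, FastQC 1.0.0 and bcl2fastq 2.20.0.422, with mm10/GRCm38; the counting tool and strand setting are not given in the sources used here. Of 24953 entries, 2 were summaries (reads outside genes, 15.2% to 25.5%, and ambiguous reads) and 27 had unreadable cells (53); 24924 genes remained, of which 24390 (97.9%) matched 1 GENCODE M21 gene, the source of coordinates and exonic lengths. Aldoa had 2 records, and the one overlapping its RefSeq gene was used.

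CPM are counts per 1000000 gene counts. edgeR 4.0.16 (R 4.3.3, limma 3.58.1) quasi-likelihood tests used TMM scaling, filterByExpr with a minimum count of 10, and two-sided p-values adjusted over all genes tested by Benjamini-Hochberg at 0.05. IL-5 was tested within each cell type; T cells against microglia and the difference of responses were fitted on all 8 libraries. The SE is the fold change over the root of F. The floor of a count of 0 is 3 counts per library and covers counting error only. An exact permutation test of 2 against 2 cannot go below p = 0.333 and was not used. The pipeline was tested on simulated data. Alternatives were DESeq2 1.42.0, RLE or library-size scaling, scaling to marker genes, other count filters, offsets for exonic length, the replicate number as a block, other sets of libraries, and leaving out each library. Near copies were sought with blastn at 98% identity over 75 bases. Figures used Python 3.11.15 and matplotlib 3.10.9.

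The members and the 8 gene lists (134 genes) were chosen with earlier results of these data known. Named beside the members were 14 fixed genes, up to 5 list genes per direction with the smallest p past the threshold (2 where none passed), and the 5 genes nearest the members' mean course. Other called list genes were named after their values were seen.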

Additional observations from a re-analysis of the deposited data

Results flagged for a closer look

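Among the members and the list genes picked by the naming rule, 3 genes had groups that did not overlap in either cell type after TMM scaling, with the IL-5 values higher in T cells and lower in microglia. Of all genes tested, 17.1% were above without overlap in T cells and 20.6% below in microglia. The share of all genes with both was not counted, so the pattern is not set apart from that background. The difference of the responses was tested for each of the 3 genes in the fit of all 8 libraries, and none passed. It was 1.22 on the log2 scale for Gpi1 (SE 0.515, edgeR adjusted p = 0.904), 2.76 for Dlst, a subunit of the 2-oxoglutarate dehydrogenase complex (SE 0.74, edgeR adjusted p = 0.904), and 0.861 for Tkt, transketolase (SE 0.506, edgeR adjusted p = 0.914). Dlst measured 173 and 119 CPM in T cells of IL-5 mice and 72.4 and 84.5 CPM in T cells of PBS mice, against 9.64 and 29.4 CPM in microglia of IL-5 mice and 58.3 and 89.6 CPM in microglia of PBS mice. Tkt measured 215 and 193 CPM in T cells of IL-5 mice and 189 and 179 CPM in T cells of PBS mice, against 21.7 and 34.1 CPM in microglia of IL-5 mice and 55.9 and 42.7 CPM in microglia of PBS mice. For Gpi1, leaving out each library in turn gave a difference of 0.92 to 1.54. Other list genes had the same pattern, among them Idh2, Suclg1 and Sdha of the TCA cycle, whose differences of 0.90 (SE 0.50), 0.64 (SE 0.45) and 1.30 (SE 0.72) did not pass either (edgeR adjusted p = 0.904, 0.919 and 0.904).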

How the results depend on the processing

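With 2 libraries a group, changes of the size seen after IL-5 were not detectable beyond the spread. The count of members called stayed at 0 for IL-5 in each cell type and for the difference of responses in every setting tried, except without replicate 2 of the IL-5 microglia (4 in microglia, 1 for the difference). Leaving out each library gave 0 to 4 in microglia, 0 to 0 in T cells, 0 to 1 for the difference, 1 to 9 for T cells against microglia in IL-5 mice and 1 to 5 in PBS mice. Fitting only the 4 libraries compared gave 0 in IL-5 mice and 4 in PBS mice, and length offsets gave 1 in IL-5 mice. With the replicate number as a block the counts were 0, 0, 0, 3 (IL-5 mice) and 2 (PBS mice). The number of all genes called moved with the setting too. Between the cell types, settings other than leaving out a library called 217 to 2843 genes in IL-5 mice and 904 to 2825 in PBS mice, so the member counts are not comparable across settings. Within a cell type, same-numbered IL-5 and PBS libraries did not deviate together (correlations 0.0124 in microglia and 0.0153 in T cells). Such a correlation cannot exclude a pairing, and same-numbered T cell and microglial libraries were not compared. Whether the numbers pair libraries is therefore unknown. The cause of these changes was not tested.

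Signs turned without passing the test as follows. Scaling to markers gave 0.059 for Pkm in microglia and 0.21 for Pfkl in T cells. Length offsets gave 0.26 for Pkm in microglia, 0.0015 for Pfkl in T cells, -0.26 for Hk2 in the difference, and -0.20 for Gapdh (IL-5 mice) and 0.056 for Aldoa (PBS mice) between cell types. The block gave -0.66 for Pgk1 in microglia. Library-size scaling gave 0.30 for Tpi1 (IL-5 mice) and 0.25 for Pfkl and 0.44 for Aldoa (PBS mice), and the 5 CPM filter, under which Hk2 was not tested in T cells, gave -0.010 for Gapdh (IL-5 mice). With each library left out, ranges that crossed 0 were, in microglia, Hk1 -0.60 to 1.54, Hk2 -0.46 to 1.145, Tpi1 -1.15 to 0.021, Pgk1 -2.22 to 0.89, Pkm -0.18 to 0.11 and Ldha -0.93 to 0.057; in T cells, Hk2 -0.13 to 1.55, Pfkl -0.28 to 0.21 and Ldha -0.050 to 0.23; for the difference, Hk2 -0.68 to 1.17 and Pgk1 -0.55 to 2.51; and between cell types in IL-5 mice, Pfkl -0.020 to 1.96, Tpi1 -0.98 to 0.14, Gapdh -0.57 to 1.05 and Pgk1 -0.34 to 2.72.

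Counts over all genes moved more. DESeq2 called 18 higher and 49 lower genes in microglia, 403 and 255 in T cells, 130 and 51 for the difference, 1139 and 1704 between cell types in IL-5 mice (edgeR 383 and 883) and 1208 and 1617 in PBS mice (edgeR 396 and 709). Library-size scaling turned the split to 958 and 336 in IL-5 mice and 919 and 376 in PBS mice. The 4 libraries alone gave 45 and 172 in IL-5 mice and 594 and 1072 in PBS mice, and no filter gave 641 and 1081 in PBS mice. Without replicate 2 of the IL-5 microglia 532 higher and 723 lower genes passed in microglia.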
